A study of Homo sapiens with 2 samples.

Results

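Sites of the RNA-binding protein RBMS3 came from CLIP-seq of MDA-MB-231 cells, a widely used human cell line of triple-negative breast cancer. The cells were stably transduced by lentivirus to express RBMS3 with an N-terminal FLAG tag from the EF1a promoter, so the sites are those of a tagged protein made from a transgene. There was 1 group, FLAG-tagged RBMS3, with 2 biological replicates. The source and cell line labels of replicate 2 give another number for the line than its title, which names MDA-MB-231. Protein and RNA were crosslinked with ultraviolet light and recovered with beads against the tag, and the tags (unique sequenced RNA fragments) of both replicates were pooled before sites were called. A site is the position of a deletion, which the method takes to arise when the reverse transcriptase passes a crosslinked base. The list is pooled, so the values have no replicate error, and they were not set against a control library.

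The sites described here lay next to the canonical poly(A) signal at annotated transcript ends. They were selected on 4 criteria: the deleted base lay in a same-strand 3′UTR of GENCODE release 44, fewer than 30% of the tags that cover it carried the deletion, it was 100 nt or less upstream of an annotated transcript 3′ end of that gene, and AATAAA, the DNA form of the signal, lay within 25 nt on either side. Of the 27706 sites in the list, 8731 (31.5%) met them, in 3410 genes, all protein-coding. They were 47.2% of the 18490 3′UTR sites that had a percentage under 30, and the genes were 62.7% of the 5436 genes with such a site. The members fell around 3749 separate signals on 23 chromosomes, with 4390 members on plus and 4341 on minus strands. A member was covered by a median of 7966 tags (quartiles 3381.5 and 17285.5, range 125 to 125056), of which a median of 77 carried the deletion (quartiles 53 and 135, range 32 to 5793). The share of tags with the deletion, which was used in the selection, was 1.35% at the median, with quartiles of 0.591 and 2.74%. Expression was not measured, so binding and the amount of each transcript cannot be told apart in the number of tags.

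The hexamer AAUAAA is read by the CPSF complex through its subunits CPSF30 and WDR33, and it directs cleavage of the pre-mRNA a short way downstream, after which the poly(A) polymerase adds the tail. The variant AUUAAA is the next most common form of the signal. CFIm, which contains NUDT21, binds UGUA upstream of the signal, and CstF binds U-rich or GU-rich sequence downstream of the cleavage site, which is no longer part of the mature mRNA. RBMS3 belongs to a family of proteins that bind single-stranded nucleic acid with a preference for A- and U-rich sequence. The library protocol captured RNA with oligo(dT) after adding a poly(A) tail, so RNA that already ended in a tail could be captured and primed as well.

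The transcript sequences of the members with the most deletions show where the deleted bases lay. Most were uridines in short runs, either directly before the signal or a few bases after it. In the lines below, 30 nt are given 5′ to 3′ in DNA letters (T for U) with their hg38 positions, all lie in annotated 3′UTRs, and capitals mark the signal. The first group had the deletion in a run of 3 T that abuts the signal, at positions 11 to 13 of each line.
TFRC (chr3:196049288-196049317, minus strand): ccttgtctgatttAATAAAatacttaaaca
LAPTM4A (chr2:20032655-20032684, minus strand): gataagatgatttAATAAAtctctttaaat
SYPL1 (chr7:106090508-106090537, minus strand): ttgcaaccaatttAATAAAggagttgaaag
SCOC (chr4:140382520-140382549, plus strand): tgctttgccgtttAATAAAaagctatttca
In the second group the deletion was in a T run after the signal, at positions 15 to 22 in S100A6 and 16 to 22 in TXNIP, and at positions 18 to 20 in ANXA5 and 19 to 21 in the other lines.
S100A6 (chr1:153534602-153534631, minus strand): aattgtacAATAAAttttttttggtcaaat
ESYT2 (chr7:158730999-158731028, minus strand): tatttattcAATAAAacctttatgttagct
CAV1 (chr7:116561149-116561178, plus strand): gcctgcacAATAAAaatgtttaacggttaa
APLP2 (chr11:130144777-130144806, plus strand): aaacacatcAATAAAtactttaacttccac
AHNAK (chr11:62515904-62515933, minus strand): acaaggcaAATAAAgctgtttattaacctt
ANXA5 (chr4:121668000-121668029, minus strand): ttaatgaaaAATAAAcatttctgtccccct
TXNIP (chr1:145992441-145992470, minus strand): aaaatgaaAATAAAgtttttttaatggaaa

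At the end of TFRC, which encodes the transferrin receptor for iron uptake, 4019 of 63089 tags had lost a T of the abutting run (6.37%, 95% Wilson interval 6.18 to 6.56%), 17 nt from the transcript end. LAPTM4A, which encodes a lysosomal membrane protein, had 2391 of 31647 tags with the deletion (7.56%, interval 7.27 to 7.85%) in a run at the same place. In SYPL1, which encodes a vesicle membrane protein of the synaptophysin family, the number was 2253 of 47146 tags (4.78%, interval 4.59 to 4.98%). SCOC, which encodes a short coiled-coil protein and was in the pooled screen of the study, had 640 of 17074 tags (3.75%). These 4 sequences share the run and the signal, and the 3 bases after the signal differ in each. Wilson intervals cover counting error only.

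After the signal, the member with the most deletions was in S100A6, which encodes a calcium-binding S100 protein. There 5793 of 79124 tags carried the deletion (7.32%, interval 7.14 to 7.51%) in a run of 8 T that follows the signal directly. ESYT2, which encodes a tether between the endoplasmic reticulum and the plasma membrane, had 3980 of 54664 tags with the deletion (7.28%, interval 7.07 to 7.50%). The run in ESYT2 starts 3 nt past the signal. CAV1 encodes caveolin-1, the coat protein of caveolae, and had 3356 of 91392 tags (3.67%). APLP2, a relative of the amyloid precursor protein, had 2576 of 80776 tags (3.19%), and AHNAK, which encodes a very large scaffold protein, had 2505 of 43063 tags (5.82%). All 3 of these deletions lay in runs of exactly 3 T, with 3 or 4 nt between signal and run. The 10 members with the most deletions all had T deleted, and 9 of them lay in a run of exactly 3.

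**Figure D1:**
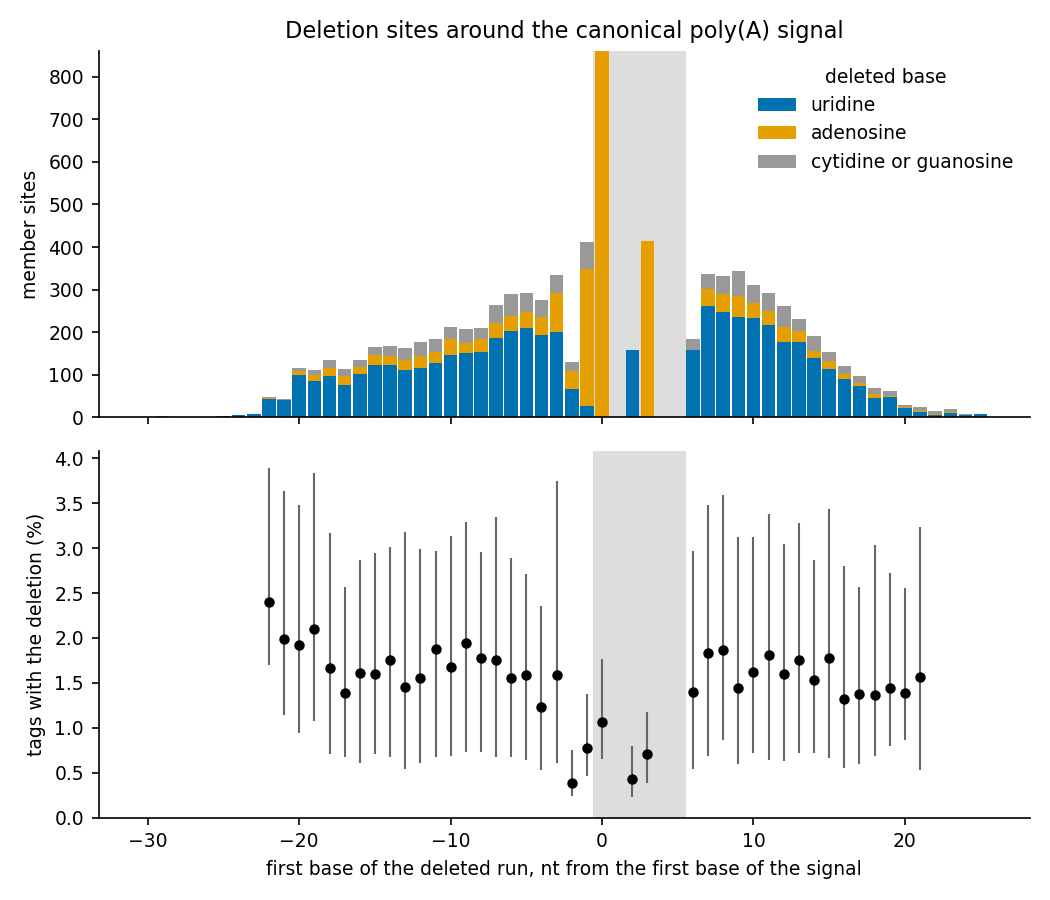
The upper panel counts members by the position of the first base of the deleted run (nt from the first base of the signal, shaded), coloured by the deleted base. The lower panel gives the median percentage of tags with the deletion (points) with its quartiles (lines) at positions with at least 20 members. Uridine deletions stand on both sides of the signal and adenosine deletions inside it, where the bases are A apart from a single T. The percentages inside are lower, with a median of 1.06% at the first base and 0.434% at the third.

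Around the signal, the members fell on both sides in similar numbers. A deletion inside a run of equal bases cannot be placed exactly, and in this list all 7283 members in runs of 2 or more stood at the lowest coordinate, so each run was placed here by its 5′ base. Of the 8731 members, 3771 (43.2%) lay before the signal, 1871 (21.4%) overlapped it and 3089 (35.4%) lay after it. Before the signal, T made up 71.7% of deleted bases and the median percentage was 1.61%. After it, T made up 73.9% and the median was 1.62%. The shares were close on both strands: 41.7% of plus-strand members and 44.7% of minus-strand members lay before the signal. At the 1130 signals with members on both sides, the member with the most deletions on each side was compared. The higher percentage was before the signal in 566 and after it in 564.

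Inside the signal the selection fixes the bases, all A apart from a single T. There the deleted base was A at 91.5% of the 1871 members, and the percentages were lower, with a median of 0.857%. These members were covered by a median of 11183 tags, more than the median of 7966 over all members, and no member had fewer than 32 deletions, so lower percentages could be listed where coverage was higher. By the place of the run, 861 members lost a base of the first AA (median 1.06%), 159 the single T at the third base (0.434%) and 414 a base of the AAA or of a longer A run that starts there (0.709%). The remaining members that overlapped the signal were in A runs that begin before it. At 636 signals there were members before, inside and after the signal, and the member with the most deletions was taken from each place. The one inside had the lowest percentage of the 3 at 334 (52.5%) and the highest at 67. The flanks offer more bases to choose from than the signal, and the part of this was not tested. The percentage decided the selection only through its upper limit, and these medians are descriptions without a test.

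The 3 lines below show members whose deletion was in the signal or next to it. In VIM the deleted base of the first site is the C at position 12, in KRT18 it is in the AA at positions 13 and 14, and in RPL23 it is in the A run at positions 12 to 22.
VIM (chr10:17237561-17237590, plus strand): tggttctgcttcAATAAAtctttggaaaaa
KRT18 (chr12:52952870-52952899, plus strand): gagcaggaggccAATAAAaagttcagagtt
RPL23 (chr17:38850089-38850118, minus strand): ttgtaaaaAATAAAaaaaaaaactaaaccc
VIM, which encodes vimentin, the intermediate filament protein of mesenchymal cells, had 10 members at this signal. Its C was deleted in 1588 of 57225 tags (2.78%), the AA in 1168 of 57472 tags (2.03%) and the TTT after the signal in 973 of 56141 tags (1.73%). VIM therefore had its highest value at a C, with runs of T on both sides of it. In RPL23, which encodes a protein of the large ribosomal subunit, 1464 of 25597 tags (5.72%) had lost an A of a run of 11 that holds the end of the signal. KRT18, a keratin of simple epithelia, had 1 member, with 76 of 2873 tags (2.65%). The APLP2 signal also had 1745 of 87739 tags with a deletion in its AA (1.99%), the most deletions of any member that overlaps a signal.

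Whether a T run near these signals carried a deletion depended on its length and on its place. Every run within 25 nt of a member signal and before the annotated end was looked up in the list. Before the signal, 1.72% of 13645 single T and 17.4% of 4000 TT had a listed deletion. The share was 57.6% of 2088 runs of 3 T, 54.7% of 889 runs of 4, 67.1% of 362 runs of 5 and 76.7% of 215 longer runs. After the signal, the shares were 2.54% of 8037 single T, 24.4% of 2663 TT, 62.0% of 1496 TTT, 59.9% of 621 TTTT, 56.2% of 217 runs of 5 and 76.1% of 109 longer runs. The step between TT and TTT was thus seen on both sides, whereas from 3 to 5 T the share did not rise at each step on either side. Deletions in a run are listed at its lowest coordinate, so a longer run pools those of more bases. The part of this in the shares was not tested. Each signal entered because at least 1 deletion was listed near it, so the shares are descriptions of these signals only.

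**Figure D2:**
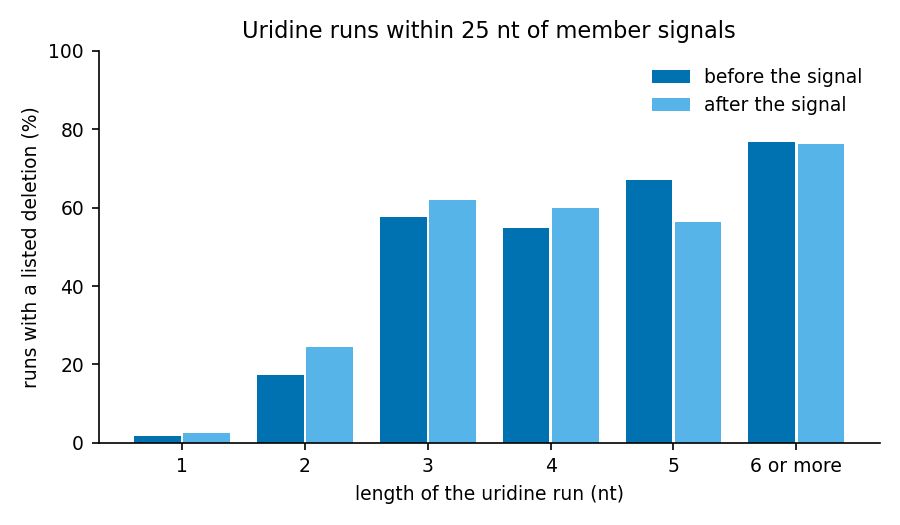
Share of uridine runs within 25 nt of member signals that carry a listed deletion, by length of the run, before and after the signal. The share is 1.72 and 2.54% for a single uridine and 57.6 and 62.0% for a run of 3.

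The share of TTT runs with a deletion was highest next to the signal. It was 87.4% for the 151 runs that abut the signal on its 5′ side (95% Wilson interval 81.2 to 91.8%) and 28.9% for the 83 runs that start 25 nt before it (interval 20.3 to 39.4%). On the 3′ side, it was 70.6% of 85 runs that follow the signal directly and 85.5% of 117 runs that start 2 nt past it (interval 78.0 to 90.7%). It then declined to 35.9% of 39 runs that start 14 nt past the signal. Further on, it was 11.5% of 26 runs that start 21 nt after the first base of the signal. At 22 and 23 nt after that base it was 15% of 20 and 22.2% of 27. The runs furthest from the signal were therefore the least often listed on both sides. A run near the signal can bring its own signal into the selection, whereas one that starts 25 nt before it lies too far away. The shares above are therefore not on equal terms. They were also taken over signals with a member outside the run. For runs that start 3 to 5 nt before the first base of the signal, 71.3% of 303 then had a deletion (interval 66.0 to 76.1%), against 34.8% of 397 that start 21 to 25 nt before it (interval 30.2 to 39.6%). For runs that start 7 to 11 nt after the first base the share was 73.4% of 428, against 34.7% of 271 that start 16 to 20 nt after it. Coverage and the distance to the transcript end change along the same stretch, and their part in these shares was not tested.

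**Figure D3:**
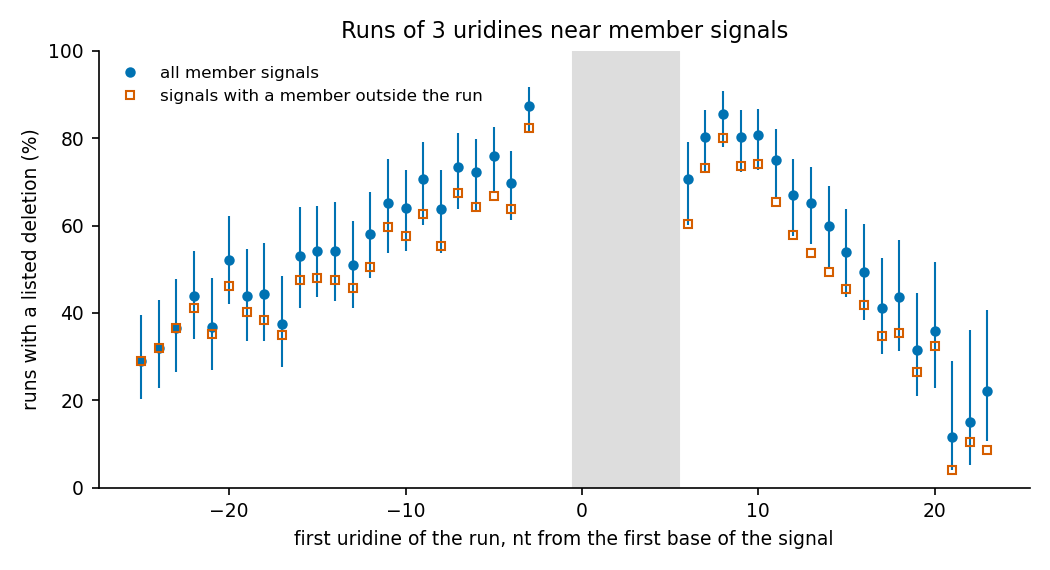
Share of runs of exactly 3 uridines that carry a listed deletion, by the position of the first uridine (nt from the first base of the signal, shaded), at positions with at least 20 runs. Filled points are all member signals with 95% Wilson intervals, and open squares are signals with a member outside the run. Among all member signals, which near runs can bring into the selection, the share peaks at 87.4% directly before the signal and at 85.5% just after it.

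Members of the same signal differed widely. At 422 signals with 5 or more members, the highest percentage was a median of 8.32 times the lowest, and the member with the most deletions held a median of 40.3% of all deletions of the signal. It held over 50% at 94 of these signals (22.3%), and at 86 of the 94 the deleted base was T. The signals described next are those with the most deletions among the named genes. The S100A6 signal had 13 members with 9028 deletions in all, of which the run of 8 T held 64.2%. Its next largest member, the AA of the signal, had 738 deletions, although 95101 tags covered it against 79124 at the T run. The TFRC signal had 11 members with 5970 deletions, 67.3% of them in the abutting TTT, and the next largest member had 589. In CAV1 the TTT held 64.3% of 5223 deletions at 8 members, and in ESYT2 it held 63.7% of 6245 at 10. The largest member held less at the other signals, 42.4% of 6073 deletions at 4 members in APLP2 and 40.6% in CALM2, 1 of the calmodulin genes. In CALM2 the TTT before the signal had 2233 deletions and the TTTT 1293, of 5500 at 11 members. Members of a signal share most of their tags, so they are not separate measurements of the transcript.

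**Figure D4:**
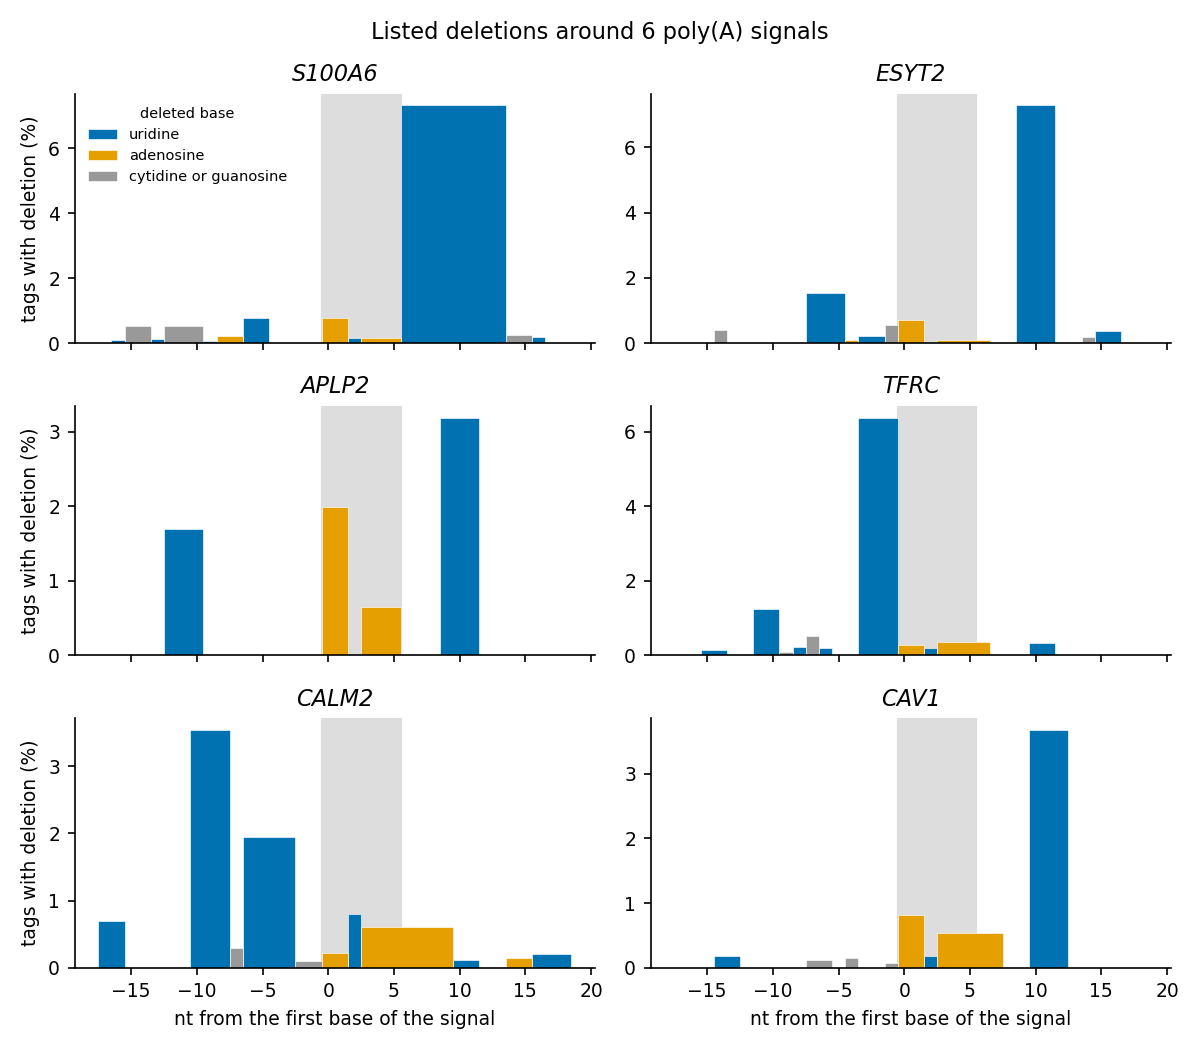
Percentage of tags with a deletion at each listed site around the 6 signals with the most deletions among the named genes, each bar spanning the run of equal bases that holds the deletion (nt from the first base of the signal, shaded), coloured by the deleted base. The tallest bar in each panel is a uridine run, from 3.19% in APLP2 to 7.32% in S100A6, and it stands after the signal in S100A6, ESYT2, APLP2 and CAV1 and before it in TFRC and CALM2.

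The selection confines the distance from the last base of the signal to the annotated end, which ran from -25 to 114 nt among the members, and within this range it is a description. Its median was 16 nt (quartiles 13 and 19 nt), and 79.6% of members had a signal 10 to 30 nt before the end. At 547 members (6.27%) the nearest annotated end lay before the last base of the signal, and at 507 of these another annotated end of the gene lay within 100 nt past it. With the next end past the signal the median was the same. The deleted base itself was a median of 19 nt from the end (quartiles 10 and 28 nt). Of the members, 25.5% lay within 10 nt of the end, 29.2% at 11 to 20 nt, 24.4% at 21 to 30 nt and 0.630% at 91 to 100 nt. End-proximal sites with ATTAAA and no AATAAA in the window (1848 sites) had a median distance of 20 nt and a similar spread, whereas sites with neither hexamer (3511) had a median of 40 nt, and 18.3% of these lay 41 to 50 nt from the end. Requiring a signal within 25 nt limits how far from an end a site can be, so these distances were not tested between classes.

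**Figure D5:**
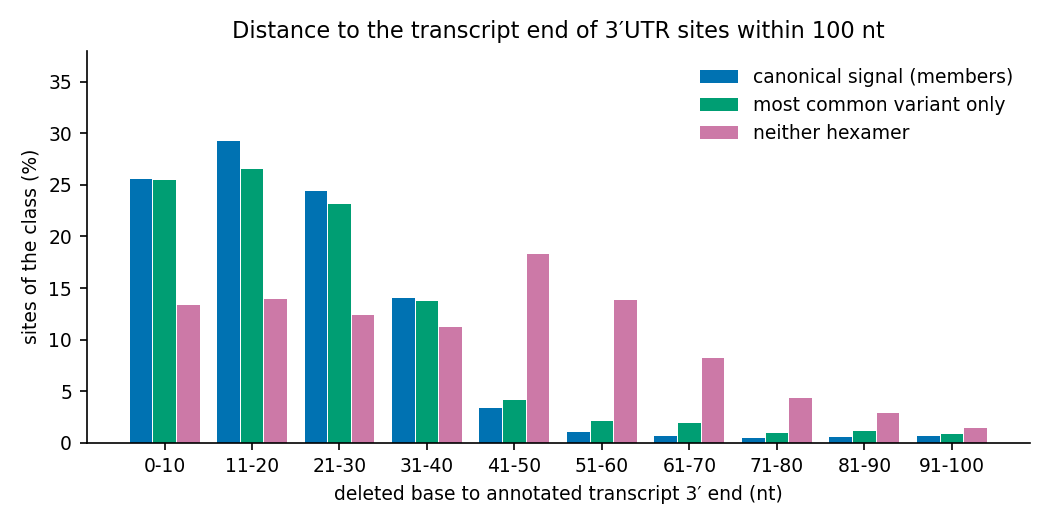
Distance from the deleted base to the annotated transcript 3′ end, as the share of each class of 3′UTR sites within 100 nt of an end: members, sites with the most common variant signal only, and sites with neither hexamer. The tallest bar is at 11 to 20 nt for members (29.2%) and at 41 to 50 nt for sites with neither hexamer (18.3%).

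The sequence before the member signals was compared with that before the other AATAAA hexamers near annotated ends. The signal followed a T directly in 28.1% of the 3749 member signals and followed TTT in 6.13%. Among 5859 other such hexamers in genes that had a 3′UTR site under 30% these shares were 22.9 and 3.21%, and among 18142 in all other genes they were 22.2 and 3.11%. TGTA, the DNA form of the UGUA that CFIm binds, was within 50 nt upstream of 49.8% of member signals. It was there for 31.0% of the other hexamers in genes with a 3′UTR site under 30% and 31.4% of those in all other genes. Whether the other hexamers serve as signals in these cells was not measured, and since deletions lie in T runs, the shares with T were open to the selection. They are given without a test.

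The members were then compared with 3 classes of 3′UTR sites under 30%, with 1 site per gene, the one with the most deletions among the sites of both classes. T was the deleted base in 74.0% of 3332 genes with a canonical signal and in 82.5% of 765 genes with the variant ATTAAA, a difference of -8.47 percentage points (canonical minus variant, 95% Newcombe interval -11.4 to -5.27, two-sided Fisher exact test, adjusted p = 2.20e-06). Against end-proximal sites with neither hexamer the shares were 74.7% of 3244 genes and 81.5% of 999 (adjusted p = 2.06e-05, Fisher exact test). AATAAA and ATTAAA differ in T content, can hold the deleted base and define the classes, so both differences were open to the selection. Neither difference remained without the deletions in the signal itself. Without runs that overlap a signal, the difference was -0.0694 points against the variant (adjusted p = 1, Fisher exact test) and 4.07 points, with T more frequent in the canonical class, against sites with neither (adjusted p = 0.00965, Fisher exact test). Sites with neither hexamer have no signal to overlap, so this setting removed none of them. From the canonical class it removed deletions that were mostly of A, so the 4.07 points were open to the selection. With only deleted bases that differ from both neighbours, T was 13.7 points more frequent in the canonical than in the variant class (adjusted p = 0.000724, Fisher exact test). That setting keeps the lone T of AATAAA and drops the TT of ATTAAA, so this difference was open to the selection too. Against sites with AATAAA more than 100 nt from an end, the shares of T were 73.9 and 74.1%, a difference of -0.110 points (interval -3.60 to 3.59, Fisher exact test, p = 1). All p-values were adjusted over 8 tests, count genes of a single pooled list and carry no spread between replicates.

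The deletion lay after the signal in 42.7% of genes with AATAAA and 42.0% of genes with ATTAAA (difference 0.776 points, interval -3.13 to 4.62, Fisher exact test, adjusted p = 0.817). Against AATAAA far from ends the shares were 42.8 and 45.5% (difference -2.71 points, interval -6.80 to 1.35, Fisher exact test, adjusted p = 0.273). Members must lie before an annotated end, a median of 16 nt past the signal, which leaves them less room after it. The comparison with AATAAA far from ends was therefore open to the selection. Counting every site in place of 1 per gene gave -2.77 points against the variant, opposite in sign, and -3.63 points against AATAAA far from ends. Both were past the threshold, but sites of a gene share tags and are not independent counts. The AUA motif of the study, a 7-nt pattern with a central AUA, was searched on the transcript strand and counted only where the match does not contain AATAAA. It was present near the site in 11.7% of genes with the canonical signal and 25.8% of genes with neither hexamer, a difference of -14.1 percentage points (interval -17.1 to -11.3, Fisher exact test, adjusted p = 2.34e-24). Windows with AATAAA have fewer bases left for another match. The window was also taken from the genome and can run past the transcript end. It did so more often for members, a median of 19 nt from the end, than for sites with neither hexamer, a median of 40 nt. The part of either in the difference was not tested. Against the variant and against AATAAA far from ends the differences were -1.95 points (interval -4.80 to 0.599, adjusted p = 0.231) and -2.57 points (interval -5.58 to 0.105, adjusted p = 0.128, Fisher exact test), neither past the threshold.

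Genes with more members had more tags at their best covered member. In 1412 genes there was 1 member, 1521 genes had 2 to 4, 433 had 5 to 9 and 44 had 10 or more. The best covered member of a gene had a median of 1967 tags in the first group, 6404 in the second, 20741 in the third and 43150 in the last. A maximum over more members can be higher for that reason alone, and the part of this was not tested. The genes with the most members were TMPO (23, lamina-associated polypeptide 2), MAT2B (17, a regulatory subunit of methionine adenosyltransferase), ESYT2 and OAZ1 (15 each, the latter the antizyme of ornithine decarboxylase) and ANXA5 (14, annexin A5). In TMPO (chromosome 12, 98515579 to 98550351, plus strand) they fell around 3 signals at 2 ends. The signal of the upstream end had 7 members with up to 425 deletions, at a C directly before it. The first signal at the downstream end had 12 members covered by 34494 to 64192 tags, and the last had 4 covered by 3698 to 5321. MAT2B (chromosome 5, 163503114 to 163519558, plus strand) had 13 members at its first end, of which GG after the signal held 809 of 26181 tags (3.09%), and 4 at its second.

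Members at more than 1 separate end were found in 188 genes: 170 had them at 2 ends, 17 at 3 and 1 at 4, counting ends over 100 nt apart. The gene with 4 was ASPH, which encodes aspartate beta-hydroxylase and, through other ends, shorter proteins of the reticulum. Tags at its ends were uneven. At 1 end there were 5 members covered by 24495 to 30996 tags, whereas the members at the other ends were covered by 3743, 2228 and 288 tags. EIF1, a factor of start codon selection, had 10 members at 3 ends, and its most distal one was covered by 2680 tags against 36245 at the best covered member. LIMCH1, which binds nonmuscle myosin, had members at 3 ends with up to 7330, 11967 and 33823 tags from the most upstream to the most distal. The best covered end was thus the most distal one in LIMCH1 and not in EIF1. HNRNPA1, a splicing regulator, and CTSC, the protease cathepsin C, also had members at 3 ends.

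Some transcripts that encode the 3′ end machinery had such sites themselves, in shares of the lists below or close to that of all genes. The lists of genes here were chosen with earlier results of these data known. Of 24 genes for 3′ end processing factors, 14 had a 3′UTR site under 30% and 7 of these had a member (against 62.7% of all genes), with 17 members in all: FIP1L1, CSTF1, NUDT21, CPSF6, CLP1, PAPOLA and SSU72. The printed lines give the CPSF6 and CSTF1 members with the most deletions, at positions 19 to 21 and 18 to 20, and that of PAPOLA at positions 12 to 21.
CPSF6 (chr12:69269912-69269941, plus strand): tagtgttgtAATAAActgtttaatggggct
CSTF1 (chr20:56406332-56406361, plus strand): tgatttctgaAATAAActttatatacaatg
PAPOLA (chr14:96567083-96567112, plus strand): gaaaacacAATAAAaaaaaaacagcacaat
CPSF6, a subunit of CFIm, had 588 of 14871 tags with the deletion (3.95%), and CSTF1, a subunit of CstF, had 255 of 3631 (7.02%). Both lay in a TTT after the signal. PAPOLA, the poly(A) polymerase, had 240 of 15391 tags (1.56%) in a run of 10 A, and 202 of 17037 (1.19%) in the AA of the signal. Of 26 genes for tail binding and deadenylation factors, 17 had a 3′UTR site under 30% and 11 had a member (64.7%, again against 62.7% of all genes). Among these, CNOT8, a deadenylase subunit of CCR4-NOT, had 126 of 2042 tags (6.17%) in a run of 5 T after the signal. BTG1, which recruits that complex, had its largest member at a C after the signal, with 224 of 11566 tags (1.94%).

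The gene TXNIP, which encodes the thioredoxin-interacting protein, and 12 others were tested in a screen that the study built partly on binding in these libraries, so their sites are not independent evidence. Of these 13 genes 9 had members (69.2%, against 62.7% of all genes with a 3′UTR site under 30%), 26 in all. In TXNIP the run of 7 T after the signal had 776 of 10388 tags with the deletion (7.47%), a TTT before the signal 247 of 9284 (2.66%) and a run of 6 A 60 of 9917 (0.605%). HMGB3, a high mobility group protein, had its largest member at a C in a stretch of T after the signal, with 262 of 6936 tags (3.78%). PTPRK, a receptor tyrosine phosphatase, had 135 of 4481 (3.01%) in a TTT before the signal and 117 of 7419 (1.58%) in a run of 5 T after it. ENPP1, an ectonucleotide pyrophosphatase, had 4 members, all between 0.468 and 0.629%, at no T run. MIA2, which acts in export from the reticulum, had members at 2 ends, with 181 of 3469 tags (5.22%) as its largest number of deletions. NRP1, SOX4 and STK39 had 1 member each, with 42, 48 and 55 deletions.

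Transcripts of the cytosolic ribosome were the list with the largest share: 56 of 81 genes had a 3′UTR site under 30%, and 47 of these (83.9%, against 62.7% of all genes) had a member, with 191 members in all. Their percentages had a median of 0.656%, below the 1.35% of all members, and reached 24.7%. Low percentages could be listed only at well covered ends, and the part of coverage in this median and in the share was not tested. The most deletions of the list were in RPL30, on chromosome 8 from 98024851 to 98046469 (minus strand). There 3985 of 27447 tags (14.5%, interval 14.1 to 14.9%) carried the deletion, at a TTT that abuts the signal. RPS29, a protein of the small subunit, had 2094 of 75464 tags (2.77%) at a TTT 8 nt before it. Of 69 genes for replication-dependent histones, whose mRNAs end in a stem-loop in place of a poly(A) tail, 0 had a 3′UTR site under 30%, and 1 had a site at a higher percentage. Of 12 luminal and epithelial markers, 4 had such a site, too few to set against the 62.7% of all genes, and 3 had a member each (KRT8, KRT18 and KRT19), with 47, 76 and 115 deletions. The genes of the RBMS family had none: 2 of the 3 had a 3′UTR site under 30%, and neither was a member.

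At the limits of the selection, YEATS4 (chromosome 12, 69359710 to 69390870, plus strand) held 1 of 7 members at exactly 100 nt from an end, with 81 of 32189 tags (0.252%), and PLBD2 had a site 1 nt further away with 47 of 5530 tags (0.850%). The highest percentage among members was 29.9% (40 of 134 tags) in TBRG1, and the lowest outside was 30.8% (66 of 214 tags) in GDAP2. There were 154 sites with AATAAA near ends at 30% or more. Among members, 167 had 10% or more and 3562 (40.8%) under 1%. The 5 highest after TBRG1 included MIA2 (29.7%), DZIP3 (28.8%) and MYBBP1A (28.7%), which were covered by 273, 125 and 136 tags. NUP85, which encodes a scaffold nucleoporin, was among them with more tags: 333 of 1142 carried the deletion (29.2%, interval 26.6 to 31.9%), in a run of 7 T before the signal.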

How the data were processed

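RNA crosslinked to FLAG-RBMS3 was sequenced from 2 replicates of 1 group. Per the study's methods, the authors appended molecular identifiers to the reads, aligned them to hg38, collapsed them to unique tags, pooled the replicates and called deletion sites with the CLIP Tool Kit (version not given in the sources used here), with filters on the FDR and on a fold that the methods do not explain. The deposited columns hold unnormalized counts: for each site, the pooled tags that cover it and those with the deletion. Depth is therefore known per site and not per library, and low percentages can be listed only where coverage is high (no member had fewer than 32 deletions). Percentages were computed from these counts.

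The deleted base was taken as the centre of each 21-nt interval, with 10 nt on each side, and placed on all transcripts of GENCODE release 44. A base in the 3′UTRs of several genes (115 members) was given to the gene with the nearest end, then to the shorter gene. AATAAA had to lie wholly within the 51-nt window, and 520 windows held 2 or more signals, of which the nearest was used. Runs of equal bases were placed by their 5′ base. Shares were compared by two-sided Fisher exact tests with Benjamini-Hochberg adjustment over 8 tests and a threshold of 0.05. Named were the 10 members with the most deletions, the 5 with the highest percentage, the 5 genes with the most members, the 5 with the most ends, up to 3 genes per list, the screen genes with a member and the sites at each limit. Genes named beyond this (FIP1L1, NUDT21, CLP1, SSU72 and those of the RBMS family) complete a list, and GDAP2 lies outside a limit. The result of 1 further list, of mesenchymal markers, is not reported here. The members and lists were chosen with earlier results of these data known. Alternatives changed the minimum number of deletions (50, since a minimum of 20 removed no site of these classes), the annotation, the distance to ends (50 nt), the window (15 nt), the percentage limit, clusters (50 nt), strand and the placing of runs. The functions were tested on simulated data. Scripts ran in Python 3.11.15 with pandas 2.3.3, scipy 1.17.1, numpy 2.4.6 and matplotlib 3.10.9, and read the genome with samtools 1.23.1 and pysam 0.24.0.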

Additional observations from a re-analysis of the deposited data

How the results depend on the processing

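A minimum of 20 deletions removed no site of the classes compared, so its 11 values equal the reported ones and are left out here. Of 99 other values, 84 kept their sign and side of the threshold, stayed within 1.5 times the reported count or stayed inside the interval of the median distance. A further 7 changed sign with neither value past the threshold: 5 for deleted T against AATAAA far from ends (0.258 to 4.87 points) and 2 for deletions after the signal against the variant (-1.88 and -0.0827 points). The number of members was 6749 with the signal within 15 nt and 7097 with at least 50 deletions. With 1 site per cluster of 50 nt there were 3457 members, and with transcripts tagged basic the median distance from signal to end was 17 nt. Counting every site gave differences in the share of deletions after the signal of -2.77 points against the variant (Fisher exact test, adjusted p = 0.0399), opposite in sign to the reported value, and -3.63 points against AATAAA far from ends (adjusted p = 0.00398). Such sites share genes and tags, and members have less room after the signal than AATAAA far from ends. With deleted bases that differ from both neighbours, the difference in deleted T was 13.7 points against the variant (exact test, adjusted p = 0.000724) and 0.787 points against sites with neither hexamer (adjusted p = 0.830), both opposite in sign to the reported values. That setting keeps the lone T of AATAAA and drops the TT of ATTAAA, so the difference against the variant was open to the selection. Without runs that overlap a signal, an alternative chosen after seeing the data, the difference in deleted T was -0.0694 points against the variant (exact test, adjusted p = 1) and 4.07 points against sites with neither (adjusted p = 0.00965). This alternative also picks other sites for some genes, and the cause was not tested. It can remove no site with neither hexamer, so the difference against those was open to the selection. The other alternatives chosen after seeing the data were ends of transcripts with a 3′UTR, sites in the 3′UTR of 1 gene and the next end past the signal. The lower share of AUA matches than at sites with neither hexamer held in every alternative computed for it, between -16.4 and -10.1 points. None of these alternatives kept the window inside the transcript. No paired analysis was possible because the only group was deposited as a pooled list, in which no replicate can be left out. No member had fewer than 32 deletions, which limits low percentages to well covered ends.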
